A study of Mus musculus with 16 samples.

Results

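The transcripts of the Igf2 imprinted locus and of the IGF receptors were followed in mouse small intestine after loss of Cul4b, the gene of the scaffold protein of the CUL4B-RING E3 ubiquitin ligase. They are 5 genes, taken by name from count tables of 52636 genes (crypts and KO CAG organoids) and 54532 genes (KO IEC organoids). Igf2 encodes the growth factor IGF2, Igf2os is an antisense RNA of the same locus, H19 is a non-coding RNA beside it, and Igf2r and Igf1r encode its receptors. The members were selected on earlier crypt values, in which Igf2 and Igf2os were higher in the KO, so the crypt values of all 5 genes are given as a description and were not tested.

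RNA-seq of 16 libraries covered 3 experiments on C57BL/6 mice. Crypts, the epithelial pockets that hold the intestinal stem cells, came from 4 WT and 4 KO IEC samples, in which pVillin-Cre deletes a floxed Cul4b (pVillin-Cre; Cul4b fn/Y) along the intestinal epithelium. Their WT controls carry the floxed Cul4b without Cre (Cul4b fn/Y). Organoids are epithelial cultures grown from such crypts, and 2 WT and 2 KO cultures were sequenced for KO IEC and again for KO CAG. In KO CAG the deletion is induced through CAG-CreERT2 (CAG-CreERT2; Cul4b fn/Y), a recombinase that tamoxifen activates and that is not restricted to a cell type. All KO animals are males with a single floxed copy of the X-linked Cul4b. The crypt replicates are separate mice, per the study's methods, which give an adult age range for most experiments without tying it to libraries. Whether the WT organoids of KO CAG carried CreERT2 or received the inducer, and whether organoid replicates came from separate animals, was not given in the sources used here, so p-values in the organoids measure the spread between these samples, which may be technical.

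The libraries held between 7348191 and 16881395 counts. A floor of 3 counts corresponds to 0.178 to 0.408 CPM, that is counts per 1000000 counts of the library. Cul4b lay between 31.7 and 83.2 CPM in the WT libraries and between 0.848 and 5.19 CPM in the KO libraries. Epithelial markers summed to 9212 to 10951 CPM in the WT crypts and 10050 to 11348 CPM in the KO crypts. The KO IEC organoids gave 6459 to 8206 CPM in WT and 9718 to 9922 CPM in KO. The KO CAG organoids gave 6322 to 6615 CPM in WT and 8735 to 9827 CPM in KO. Of 6 such markers, 1 in the crypts and 4 in the KO CAG organoids were higher in the KO at an adjusted p under 0.05 (edgeR). Over all genes tested, 4.30% were so in the crypts and 18.1% in the KO CAG organoids. Mitochondrial ribosomal RNA split the crypt libraries into a low class (WT replicate 1 and KO replicates 1 to 3, under 100 CPM), a middle class (WT replicate 4 and KO replicate 4) and a high class (WT replicates 2 and 3, over 2000 CPM).

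Igf2 is expressed from the paternal chromosome in most fetal tissues and H19 from the maternal one, under an imprinted control region between them that binds CTCF. The secreted IGF2 signals through the tyrosine kinase IGF1R and the insulin receptor. The cation-independent mannose 6-phosphate receptor, encoded by Igf2r, carries IGF2 to lysosomes for degradation and sorts lysosomal enzymes. In the adult intestine Igf2 is known mainly as a transcript of mesenchymal cells, and both Igf2 and H19 fall strongly after birth.

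On GRCm38, Igf2 (ENSMUSG00000048583) lies on the minus strand at chr7:142650766-142666816 and H19 (ENSMUSG00000000031) on the same strand at chr7:142575529-142578143. The models are 72622 bases apart. Igf2os (ENSMUSG00000086266) runs on the plus strand at chr7:142659693-142670356, across the upstream part of Igf2. Igf1r (ENSMUSG00000005533) lies on the plus strand at chr7:67952827-68233668, and Igf2r (ENSMUSG00000023830) on the minus strand at chr17:12682406-12769664. Start and end of all 5 genes are the same in each table and in GENCODE M21.

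**Figure D1:**
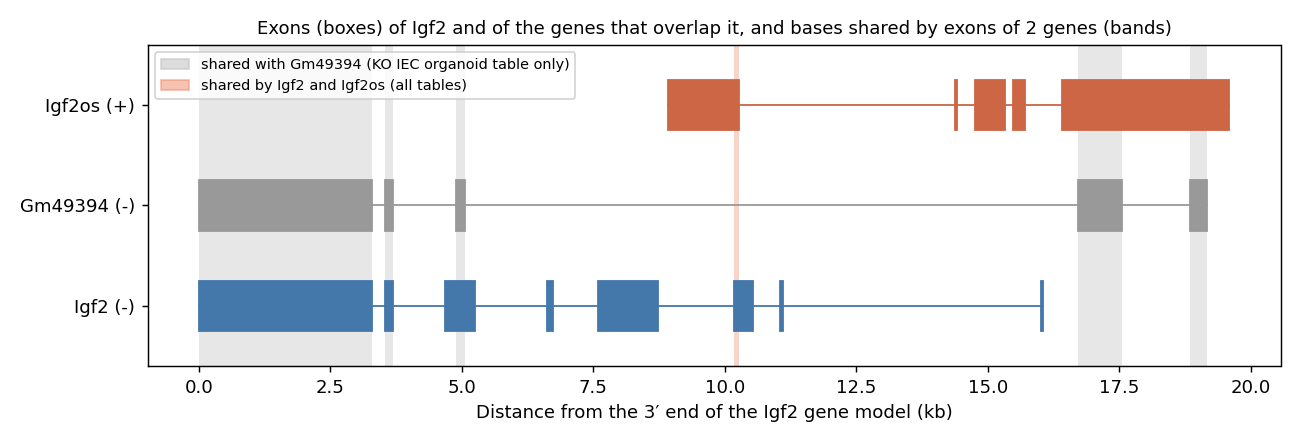
Exons (boxes) of Igf2, Gm49394 and Igf2os along the locus, drawn to scale as distance in kb from the 3′ end of the Igf2 model, with bands where exons of 2 genes share bases. Igf2 and Igf2os share 98 exon bases, while Gm49394 covers 3596 of the 5723 exon bases of Igf2.

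The overlap sets what the counts can show. Exons of Igf2 and Igf2os share 98 bases (chr7:142660932-142661029), and the rest of the Igf2os exons lie in introns of Igf2 or upstream of it. In the crypt table, 103 of 103 genes that lie wholly inside exons of a well-covered gene on the opposite strand had 0 counts, as had 104 of 104 in the KO IEC and 78 of 78 in the KO CAG organoid table. Reads were therefore counted without regard to strand, and a read within 2 genes was given to neither. Reads of the Igf2os row can come from either strand, so Igf2os RNA cannot be told apart from unspliced or upstream RNA of Igf2.

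The KO IEC organoid table differs from the others. It also lists Gm49394 (ENSMUSG00000115302, chr7:142650769-142669942, minus strand), a model that shares 62.8% of the exon bases of Igf2. This left 2029 Igf2 exon bases countable there, against 5625 in the other tables, and Gm49394 itself had 0 counts. The 1142 exon bases of Gm49394 outside Igf2 all lie within Igf2os exons. They make up 21.4% of the exon bases of Igf2os. A low Igf2 count in that table cannot be told apart from this loss. For Igf2os the loss is smaller, and how far it lowers the count was not tested.

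The Igf2 amplicon of the study's qPCR primers shows which part of the gene is affected. It spans 109 bases of coding sequence in 7 of 9 Igf2 transcripts, crosses an intron, and lies in sequence shared with Gm49394 (ends at chr7:142654390 and chr7:142655703). The amplicon below is written in the sense of Igf2 from the GENCODE M21 transcripts, with the primer sites in capitals. The forward primer matched exactly and the reverse primer with 1 substitution, A1G, counted from 1 at its 5′ end with the primer's base first and capitalised in the primer.
Igf2 amplicon: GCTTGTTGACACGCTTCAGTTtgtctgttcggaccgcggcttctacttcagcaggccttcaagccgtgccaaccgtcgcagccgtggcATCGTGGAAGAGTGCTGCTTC
Forward primer: gcttgttgacacgcttcagtt
Reverse primer: Aaagcagcactcttccacgat

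Each of the imprinted transcripts also hosts a microRNA. Mir675 lies in an exon of H19 and Mir483 in an intron of Igf2. Mir675 had 0 counts in all 16 libraries, and Mir483 had 1 count in all. Their rows therefore say nothing of the microRNAs. The mature sequences (RefSeq, GRCm38.p6) are shown because they are products of the same transcripts, with the seed (bases 2 to 8) in capitals, and no seed is shared among them.
mmu-miR-483-5p: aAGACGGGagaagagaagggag
mmu-miR-483-3p: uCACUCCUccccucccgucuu
mmu-miR-675-5p: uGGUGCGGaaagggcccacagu
mmu-miR-675-3p: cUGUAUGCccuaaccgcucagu

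RefSeq (GRCm38.p6) gives 4 promoters of Igf2, of which 2 lie inside the Igf2os gene. One promoter of each kind is printed below, 300 bases in the sense of Igf2, since the crypt values of Igf2 and Igf2os lay close to each other in pattern. The capitals mark the GC box, GGGCGG, searched on both strands. It occurred 2 times in the promoter outside Igf2os and was not found in the one inside it, and 35.7% of 32851 promoters of this length hold it.
Igf2 promoter, chr7:142657447-142657746, minus strand, outside Igf2os: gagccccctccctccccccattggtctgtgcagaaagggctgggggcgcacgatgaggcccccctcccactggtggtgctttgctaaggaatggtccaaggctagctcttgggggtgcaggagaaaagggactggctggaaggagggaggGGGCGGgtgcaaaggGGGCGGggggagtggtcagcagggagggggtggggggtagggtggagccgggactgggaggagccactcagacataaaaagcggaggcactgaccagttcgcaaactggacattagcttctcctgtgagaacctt
Igf2 promoter, chr7:142661222-142661521, minus strand, inside Igf2os: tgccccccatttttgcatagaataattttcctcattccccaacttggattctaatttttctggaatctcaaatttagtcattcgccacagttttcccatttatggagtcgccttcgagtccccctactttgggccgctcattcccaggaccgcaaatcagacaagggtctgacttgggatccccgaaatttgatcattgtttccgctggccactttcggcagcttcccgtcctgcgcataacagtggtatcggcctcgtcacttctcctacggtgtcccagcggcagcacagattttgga

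In the crypts, the ligand transcript was higher in every KO library than in any WT library. Igf2 had 20, 19, 28 and 49 counts in WT replicates 1 to 4, or 1.79, 1.79, 2.24 and 3.94 CPM scaled by TMM factors. In KO replicates 1 to 4 it had 102, 150, 107 and 123 counts, or 10.8, 11.5, 11.3 and 11.3 CPM. The KO libraries lay close together at 11.2 ± 0.300 CPM (SD, n = 4), and the WT libraries at 2.44 ± 1.02 CPM (SD, n = 4), with WT replicate 4 the highest. The log2 fold change was 2.19 (SE 0.26), a 4.56-fold level in the KO. These values were known when the gene was chosen, and 8.70% of the 13427 genes tested in the crypts were likewise higher in every KO library, and 8.79% lower. Calls at an adjusted p under 0.05 made up 6.96% of these genes, 4.30% higher and 2.66% lower.

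Igf2os, the antisense row, was nearly absent in WT. It had 1, 0, 1 and 5 counts in WT replicates 1 to 4 and 18, 22, 20 and 27 in KO replicates 1 to 4. The WT libraries gave 0 to 0.402 CPM and the KO libraries 1.68 to 2.48 CPM, without overlap. The ratio of the summed counts was 13.6, with an exact 95% counting interval of 6.30 to 34.7 that covers counting error only. The WT group holds 7 counts in all, and the log2 fold change of 3.68 (SE 0.56) was 4.90 without WT replicate 4 and 3.33 without WT replicate 2.

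WT replicate 4 was the highest WT library for both. The antisense row held 5.69% of the Igf2 plus Igf2os counts in the pooled WT libraries (7 of 123, exact 95% interval 2.32 to 11.4%) and 15.3% in the pooled KO libraries (87 of 569, 12.4 to 18.5%). By library the share was 0 to 9.26% in WT and 12.8 to 18.0% in KO, and each single WT interval reached 17.6% or more. Both genes were selected on these counts as higher in the KO, and Igf2os passed the filter only through the KO libraries. The shares are therefore a description. The intervals cover counting error only, not the spread between mice. With both rows summed into 1, the log2 fold change was 2.35.

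**Figure D2:**
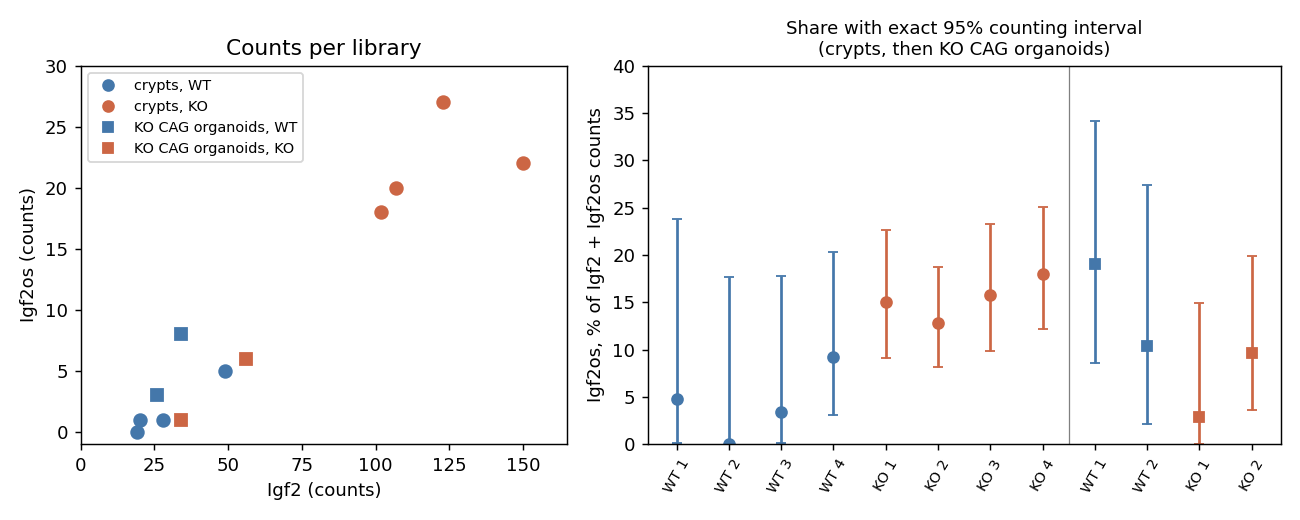
Counts of Igf2os against Igf2 per library (left) and the share of Igf2os in their sum with exact 95% counting intervals (right), for crypts and KO CAG organoids. The 4 crypt KO libraries stand apart at 102 to 150 Igf2 and 18 to 27 Igf2os counts, and the KO CAG experiment gives 26 to 56 Igf2 and 1 to 8 Igf2os counts.

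H19, the maternally expressed RNA, was near the floor in the crypts. It had 17, 1, 2 and 3 counts in WT replicates 1 to 4 and 0, 3, 0 and 6 in KO replicates 1 to 4. All but WT replicate 1 and KO replicate 4 were at or under the floor of 3 counts, H19 did not pass the filter on low counts, and the groups overlapped. The WT sum of 23 counts rests largely on WT replicate 1.

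Among the receptors, the groups overlapped. Igf2r, the receptor that clears IGF2, gave 105, 128, 100.1 and 110 CPM in WT replicates 1 to 4 and 139, 168, 149 and 102 CPM in KO replicates 1 to 4. KO replicates 1 to 3 were above all WT libraries, and KO replicate 4 was among them. The log2 fold change was 0.33 (SE 0.15). Igf1r gave 36.9, 39.8, 37.3 and 21.9 CPM in WT and 41.3, 33.7, 23.9 and 15.4 CPM in KO replicates 1 to 4, with a log2 fold change of -0.25 (SE 0.29). Its groups overlapped throughout, and the libraries of replicate 4 were the lowest of both genotypes.

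Levels by class of mitochondrial ribosomal RNA are given as a description. For Igf2 and Igf2os every KO library lay above every WT library, so any split of the libraries gives that direction. Igf2 was 1.79 CPM in the WT library and 11.2 CPM on average in the 3 KO libraries of the low class. In the middle class it was 3.94 against 11.3 CPM, with 1 library each. Igf2os gave 0.0895 against 1.90 CPM and 0.402 against 2.48 CPM. Igf2r was 105 against 152 CPM in the low class and 110 against 102 CPM in the middle class, so its direction differed between the classes. The high class holds WT libraries only.

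Per kilobase of exon, the members in the crypts ranked from Igf2r through Igf1r to Igf2, H19 and Igf2os in WT. Mean levels were 11.7, 2.02, 0.426, 0.213 and 0.0268 RPKM (CPM divided by exon length in kilobases), and those of Igf2 and H19 overlapped between libraries. In the KO, Igf2 reached 1.96 ± 0.0524 RPKM (SD, n = 4), beside Igf1r at 1.70 ± 0.675 RPKM (SD, n = 4), whose libraries lay on both sides of it. Igf2os followed at 0.383 and H19 at 0.0823 RPKM.

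**Figure D3:**
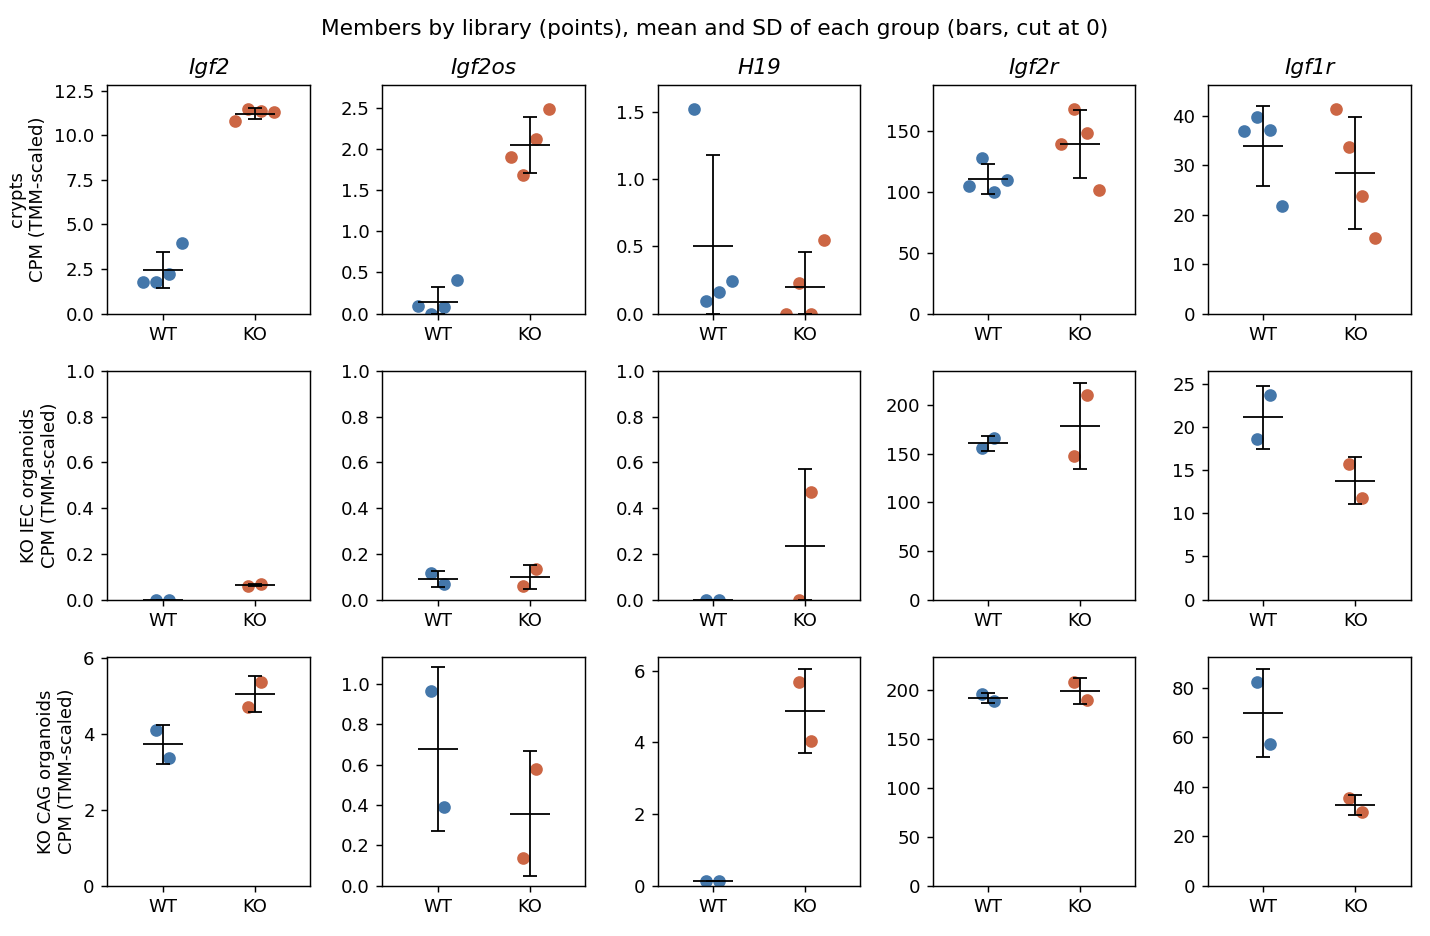
Level of each member (columns) in each experiment (rows) as TMM-scaled CPM on linear axes from 0, with every library as a point and the mean and SD of each group as bars. Igf2 and Igf2os separate KO from WT in the crypts, and Igf2, H19 and Igf1r do in the KO CAG organoids. In the KO IEC organoids Igf1r separates them, and Igf2, Igf2os and H19 are near 0. In the KO CAG organoids 35.5% of the genes tested separate with KO higher and 34.2% with KO lower.

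In the KO IEC organoids, the 3 transcripts of the locus had few or no counts. Igf2 had 0 and 0 counts in WT and 1 and 1 in KO, and Igf2os had 2 and 1 in WT and 1 and 2 in KO. Gm49394 limits both, over 62.8% of the exon bases of Igf2 and 21.4% of those of Igf2os. H19, which Gm49394 does not overlap, had 0 counts in WT replicates 1 and 2 and in KO replicate 1, and 7 counts, 0.473 CPM, in KO replicate 2. None of these 3 genes passed the filter. A count of 0 allows up to 0.178 to 0.200 CPM in these libraries.

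The receptors were measurable there and were not called. Igf2r gave 155 and 166 CPM in WT and 147 and 210 CPM in KO replicates 1 and 2, a log2 fold change of 0.15 (SE 0.22; adjusted p = 0.884, edgeR quasi-likelihood test). Igf1r gave 18.5 and 23.6 CPM in WT and 15.7 and 11.8 CPM in KO, a log2 fold change of -0.61 (SE 0.27; adjusted p = 0.856, same test). Both KO libraries were below both WT libraries for Igf1r, as were 19.4% of the 13938 genes tested. Cul4b was the 1 gene called in this experiment, which is 0.00717% of the genes tested, and 650 genes had an unadjusted p under 0.05 (26 genes were called by DESeq2). The change in the KO CAG organoids (-1.11) lies within 2 SE of the Igf1r value here.

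In the KO CAG organoids, H19 was higher and Igf2 was not called. H19 had 1 count in each WT library and 41 and 42 counts in KO replicates 1 and 2, that is 0.120 and 0.130 CPM against 5.70 and 4.04 CPM. The ratio of the summed counts was 37.8, with an exact 95% counting interval of 10.1 to 317. The log2 fold change was 5.11 (SE 0.57; adjusted p = 0.000154, edgeR quasi-likelihood test). H19 passed the filter only through the KO libraries, where it is high, so the call supports nothing beyond the counts themselves. Without a filter on low counts the adjusted p was 2.61e-17 (edgeR), from the same counts and so no further support. The call was lost where all 16 libraries shared 1 estimate of the spread (adjusted p = 0.0838), and DESeq2 gave an adjusted p of 0.000154.

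The background of calls in these organoids is high, since 31.5% of the 13598 genes tested were called, 18.1% higher and 13.4% lower. Of the members that did not depend on the KO libraries to pass the filter (Igf2, Igf2r and Igf1r), Igf1r was called, and it was lower. Igf2 gave 34 and 26 counts in WT and 34 and 56 in KO replicates 1 and 2, or 4.10 and 3.37 against 4.73 and 5.38 CPM. Its KO libraries were above its WT libraries, as were those of 35.5% of the genes tested. The log2 fold change was 0.44 (SE 0.28; adjusted p = 0.247, edgeR), and the ratio of the summed counts was 1.37 with a counting interval of 0.974 to 1.93.

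Igf2os was near the floor in these cultures. It had 8 and 3 counts in WT and 1 and 6 in KO, did not pass the filter, and made up 15.5% of the Igf2 plus Igf2os counts in WT (11 of 71, exact 95% interval 7.996 to 26.0%) and 7.22% in KO (7 of 97, 2.95 to 14.3%). These intervals overlap.

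Igf1r, the signalling receptor, fell in the KO CAG organoids. It gave 82.5 and 57.3 CPM in WT and 35.4 and 29.7 CPM in KO replicates 1 and 2. The KO libraries were both below the WT libraries, as for 34.2% of the genes tested, and the WT libraries differed from each other by more than the KO libraries did. The log2 fold change was -1.11 (SE 0.17; adjusted p = 0.000802, edgeR quasi-likelihood test), a level 0.462 times that of WT. In the fit over all 16 libraries the same change of -1.11 had an adjusted p of 0.119. Igf2r gave 196 and 188 CPM in WT and 209 and 190 CPM in KO, a log2 fold change of 0.05 (SE 0.09; adjusted p = 0.680). Its estimate lies within 0.1 of 0 with an SE smaller than that of any other member.

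The balance of the receptors is given as a description. Per kilobase, Igf2r exceeded Igf1r 4.22 to 5.85 times in the WT and 10.5 to 11.4 times in the KO CAG organoid libraries. In the KO IEC organoids the ratio was 12.7 to 15.1 in WT and 16.9 to 32.0 in KO. The crypts gave 4.78 to 8.95 in WT and 5.99 to 11.8 in KO, with overlap. Levels in the KO CAG organoids ranked Igf2r, Igf1r, Igf2, Igf2os and H19 in WT, at 20.3, 4.16, 0.652, 0.127 and 0.0527 RPKM. In the KO, H19 at 2.05 ± 0.495 RPKM (SD, n = 2) stood level with Igf1r at 1.94 ± 0.242 RPKM (SD, n = 2), and both were above Igf2 at 0.883 RPKM.

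Whether the deletion acted differently in both organoid models was tested as an interaction in 1 fit of all 16 libraries over 15585 genes, of which 60 (0.385%) were called. For Igf1r, the KO CAG minus the KO IEC change was -0.51 (SE 0.53; adjusted p = 0.783, edgeR). For Igf2r the difference was -0.13 (SE 0.30; adjusted p = 0.928, edgeR). For H19 it was 0.61 (SE 1.66; adjusted p = 0.944, edgeR), a value with little content, since 3 of the 4 libraries of the KO IEC organoid experiment had 0 counts. Igf2 and Igf2os were not compared between the models because of Gm49394. None of the 3 differences passed the test, and for Igf1r the SE is as large as the difference, so that the models are not shown to act alike.

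The genes around Igf2 on chromosome 7 did not share one direction. Of 22 locus neighbours in the crypt table, 13 were tested, and 1 was called lower and none higher. Over all genes, 2.66% were called lower and 4.30% higher. The neighbours' median log2 fold change was -0.14, beside -0.01 over all genes. Here and in the organoids, the list also counts Airn, an antisense gene at Igf2r on chromosome 17 (0.17 in the crypts, not called). The gene called was Ascl2, a transcription factor of intestinal stem cells that lies 301 kb from the Igf2 start. It gave 14.4 ± 2.14 CPM in WT and 9.08 ± 1.55 CPM in KO (SD, n = 4 each; log2 fold change -0.67, SE 0.17, adjusted p = 0.0499, edgeR).

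In the KO CAG organoids, 6 of 13 tested neighbours were called higher and 2 lower, where 18.1% and 13.4% of all genes were. Their median log2 fold change was 0.32, beside 0.00 over all genes. Syt8, a synaptotagmin gene 229 kb from Igf2 on the side of H19, rose from 1.28 to 5.25 CPM (log2 fold change 2.04, SE 0.47, adjusted p = 0.00868, edgeR), and it passed the filter only with the KO libraries. Ctsd, the lysosomal protease cathepsin D, rose from 120 to 232 CPM (0.95, SE 0.10, adjusted p = 9.12e-05, edgeR). On the other side, Slc22a18, a transporter gene of the adjacent imprinted domain, rose by 0.83 (SE 0.12, adjusted p = 0.000802, edgeR). Cdkn1c, an imprinted inhibitor of the cell cycle in that domain, rose by 0.68 (SE 0.23, adjusted p = 0.0447, edgeR), a call kept under 5 of 11 alternatives (adjusted p up to 0.359). In the KO IEC organoids none of 12 tested neighbours was called, and values ran from -3.59 for Ascl2 to 2.24 for Syt8.

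**Figure D4:**
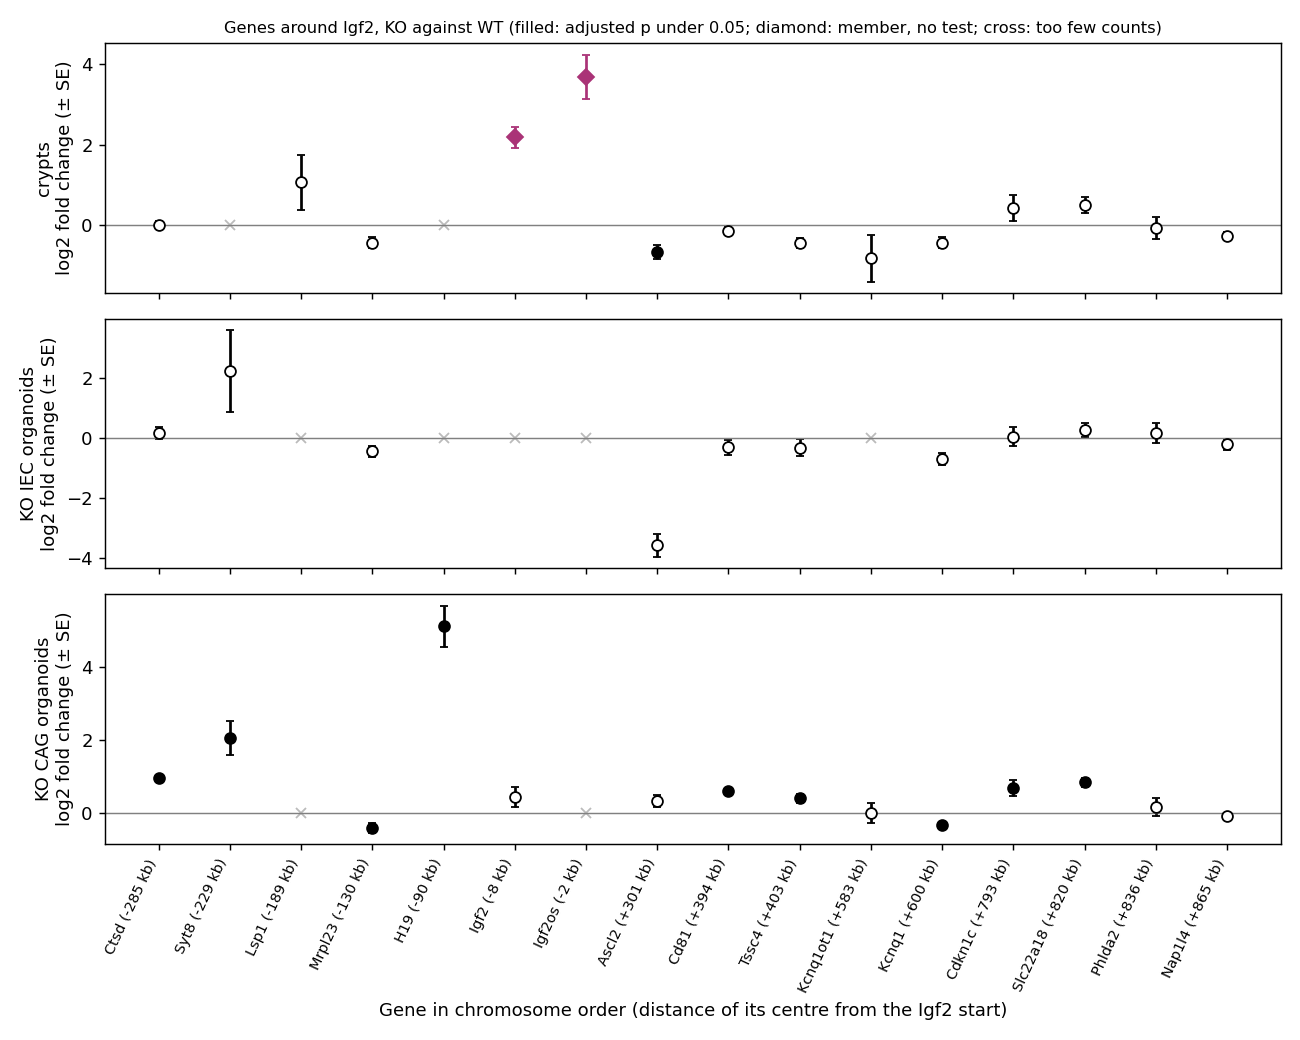
Log2 fold changes (KO against WT, with SE) of Igf2, Igf2os, H19 and their neighbours in chromosome order, labelled with the distance of each gene's centre from the Igf2 start in kb, for each experiment. In the crypts Igf2 (2.19) and Igf2os (3.68) stand above the other genes, and in the KO CAG organoids H19 (5.11) does, while Igf2 is at 0.44.

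Other ligands were barely present. Igf1, Ins1 and Ins2 were not tested in any experiment, and their CPM summed to at most 0.636 in a library. Among the other receptors of the family, Insr, the insulin receptor, rose in the crypts from 63.3 ± 5.39 to 93.2 ± 17.6 CPM (SD, n = 4 each; log2 fold change 0.56, SE 0.14, adjusted p = 0.0486, edgeR). The crypt libraries gave 57.2 to 70.3 CPM in WT and 72.5 to 110 CPM in KO, without overlap. In the KO CAG organoids Insr gave -0.26 and was not called.

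Binding proteins hold IGFs outside the cell and release them after cleavage. Of 8 IGF-binding proteins, 2 passed the filter in the crypts, and Igfbp4 was called lower. It gave 38.7 to 51.3 CPM in WT and 12.0 to 28.3 CPM in KO (log2 fold change -0.97, SE 0.24, adjusted p = 0.0489, edgeR). No binding protein was called in either organoid experiment, where Igfbp4 gave -2.39 (KO IEC, SE 0.65) and -0.37 (KO CAG, SE 0.16).

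Of the genes that act on these complexes, Stc2, an inhibitor of the binding-protein proteases, fell in the KO CAG organoids. It gave 108 ± 17.2 CPM in WT and 37.1 ± 3.14 CPM in KO (SD, n = 2 each; log2 fold change -1.53, SE 0.12, adjusted p = 2.47e-05, edgeR). Pappa2, one of those proteases, rose from 5.45 to 10.5 CPM (0.94, SE 0.22, adjusted p = 0.00952, edgeR), a call not kept under every alternative. Both tested mRNA-binding proteins of the IGF2BP family, named for their binding of the Igf2 message, fell in the same organoids. Igf2bp2 gave 114 and 102 CPM in WT and 58.5 and 70.7 CPM in KO replicates 1 and 2 (log2 fold change -0.73, SE 0.11, adjusted p = 0.00072, edgeR), and Igf2bp3 gave -0.48 (SE 0.15, adjusted p = 0.032, edgeR). In the crypts neither was called, at 0.12 and 0.18.

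Downstream of the receptors, 1 of 12 tested genes was called in the crypts, and it was higher, where 6.96% of all genes were called. In the KO CAG organoids 1 of 14 was called higher and 2 lower, where 31.5% of all genes were called. These counts are not a result about the list. Irs2, an adaptor of the insulin and IGF1 receptors, was called in both. It rose in the crypts (26.0 to 40.8 CPM, log2 fold change 0.65, SE 0.16, adjusted p = 0.0461, edgeR) and fell in the KO CAG organoids (66.1 to 40.6 CPM, -0.71, SE 0.15, adjusted p = 0.00550, edgeR). Pik3r1, a regulatory subunit of PI3-kinase, fell there by 0.41 on the log2 scale (SE 0.09, adjusted p = 0.00647, edgeR). Pik3r3, another such subunit, rose by 1.40 (SE 0.20, adjusted p = 0.000689, edgeR).

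Genes of mannose 6-phosphate sorting, the other task of the Igf2r product, gave 5 called higher and 1 lower of 10 tested in the KO CAG organoids, where 31.5% of all genes were called. Their median was 0.26 on the log2 scale. The highest were Ctsl (28.1 to 55.0 CPM, 0.96, SE 0.12, adjusted p = 0.000234, edgeR) and Ctsd, the lysosomal proteases, followed by Nagpa, the enzyme that uncovers the sorting signal (0.63), and Ctsb (0.53). None of the 10 was called in the crypts, where the median was 0.02.

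**Figure D5:**
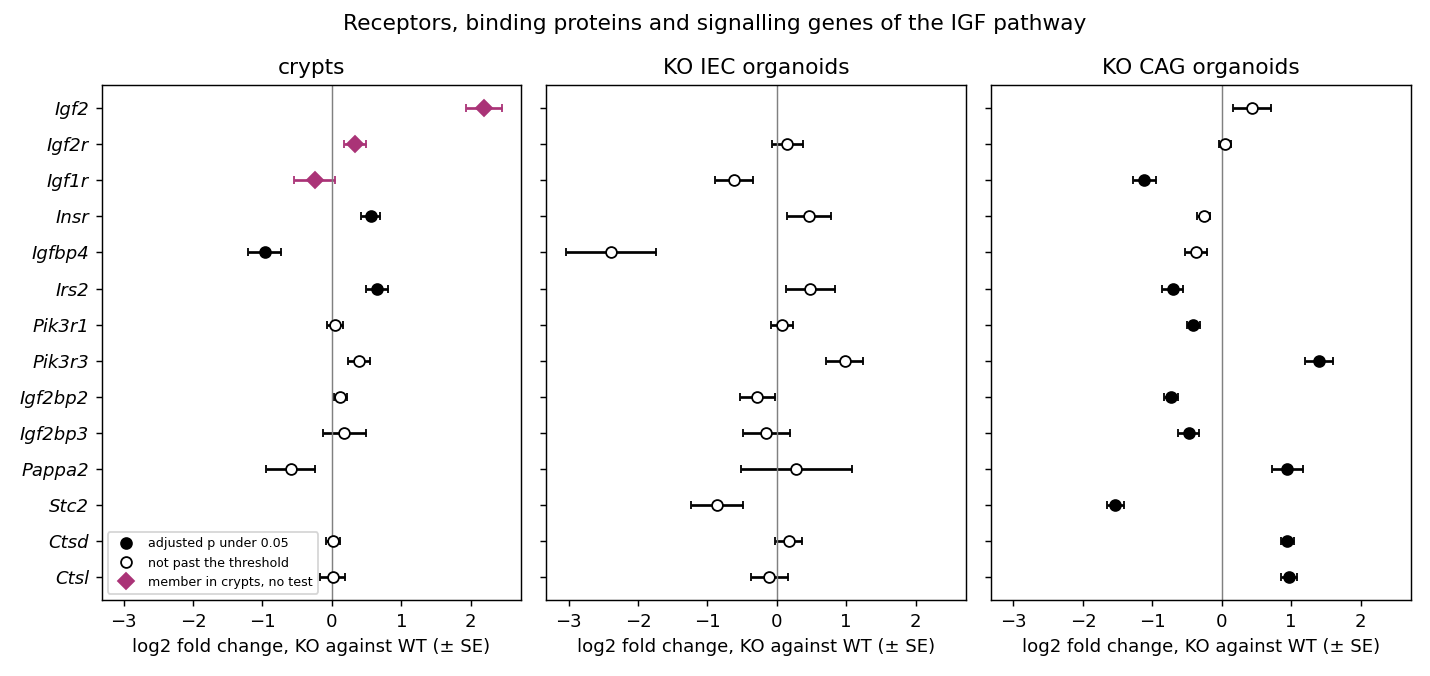
Log2 fold changes (KO against WT, with SE) of Igf2, the receptors and the genes of the pathway lists named in the text, 1 panel per experiment. Filled circles passed an adjusted p of 0.05 and diamonds were not tested; Irs2 lies on opposite sides of 0 in the crypts (0.65) and the KO CAG organoids (-0.71).

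A list of other imprinted genes showed no call in the crypts, with 16 of 37 tested and a median log2 fold change of -0.003. It shares Cdkn1c, Phlda2 and Kcnq1ot1 with the locus neighbours, so Cdkn1c counts in both lists. In the KO CAG organoids, 5 of 19 tested were called higher and 2 lower, with a median of 0.22. The share called is near the 31.5% of all genes called there, so the count is not a result about imprinted genes. Meg3, a maternally expressed non-coding RNA, rose from 1.01 to 2.67 CPM (1.40, SE 0.42, adjusted p = 0.0277, edgeR), passed the filter only with the KO libraries, and kept the call under 4 of 10 alternatives (adjusted p up to 0.325). Peg3, a paternally expressed zinc finger gene, rose from 19.7 to 33.5 CPM (0.77, SE 0.14, adjusted p = 0.00282, edgeR). Mcts2 gave 0.71 (SE 0.23, adjusted p = 0.0374, edgeR), a call kept under 5 of 11 alternatives (adjusted p up to 0.252). Ppp1r9a fell by 0.92 on the log2 scale (SE 0.14, adjusted p = 0.000840, edgeR).

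Among regulators of imprints and of the Igf2 promoters, 7 of 19 tested genes were called lower and 1 higher in the KO CAG organoids, where 13.4% of all genes were called lower and 18.1% higher. The one called higher was Zfp57, a zinc finger protein that maintains methylation at imprinted regions, with 4 counts in each WT library and 33 and 28 in the KO libraries, through which alone it passed the filter on low counts (log2 fold change 2.79, SE 0.49, adjusted p = 0.00210, edgeR). Hmga2 fell by 0.68 on the log2 scale (SE 0.15, adjusted p = 0.00624, edgeR), Smc1a, a cohesin subunit, by 0.41 (SE 0.10, adjusted p = 0.0110, edgeR), and Tet2, a dioxygenase of methylated cytosine, by 0.63 (SE 0.13, adjusted p = 0.00465, edgeR). In the crypts Tet2 was the 1 called of 17 tested, and it rose, from 24.0 ± 1.68 to 34.2 ± 1.78 CPM (SD, n = 4 each; log2 fold change 0.51, SE 0.09, adjusted p = 0.0383, edgeR). The interaction between the organoid models was called for Tet2 (-1.21, SE 0.23, adjusted p = 0.0375, edgeR), with KO CAG at -0.63 and KO IEC at 0.59.

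The listed calls in the crypts depend on single libraries. The genes above that passed there (Ascl2, Insr, Igfbp4, Irs2 and Tet2) had adjusted p-values of 0.0383 to 0.0499, and 0 of these lists' genes were called when any one of WT replicates 1, 2 and 3 or KO replicates 2 and 3 was left out. Over the whole table the calls then fell from 934 to between 2 and 20.

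Across the crypt libraries, the genes whose log2 CPM followed Igf2 most closely were Igf2os (Pearson r = 0.990 over 8 libraries), Tiparp (0.983), Bag4 (0.982), Fmn1 (0.981) and Kdm7a (0.976). This is a description over libraries of 2 genotypes, and much of it is the difference between them. Igf2 and Igf2os were selected as higher in these KO libraries, through which alone Igf2os passed the filter on low counts. The place of Igf2os is therefore no support for a link. Within the genotypes, r was 0.844 for Igf2os and 0.7105 to 0.841 for the others. Igf2r gave 0.563 over the 8 libraries and -0.076 within the genotypes, and Igf1r gave -0.447 and -0.558.

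In the crypts, the sums of mesenchyme and of glial and neuronal markers did not overlap between the genotypes, and those of the other cell types did. Their part in the results was not tested. Mesenchyme markers, whose cells are known to express Igf2, summed to 17.6 to 22.2 CPM in WT and 11.1 to 13.6 CPM in KO. None of the 4 tested of 13 was called, their median log2 fold change was -0.78, and no marker was at 0 in all 8 libraries. Endothelial markers gave 5.66 to 8.42 CPM in WT and 6.26 to 7.81 in KO, immune markers 20.2 to 55.8 and 23.3 to 91.0 CPM, and 5 glial and neuronal markers 1.05 to 3.77 and 0.106 to 0.643 CPM. Enterocyte markers summed to 1481 to 6682 CPM in WT and 6052 to 14628 CPM in KO, and all 7 had a positive log2 fold change, while none was called. Stem cell markers summed to 1388 to 2224 CPM in WT and 863 to 1395 CPM in KO. Lgr5 and Ascl2 of these 4 were called lower, where 2.66% of all genes tested were. In bulk libraries, fewer cells of a type and less RNA per cell cannot be told apart.

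In the KO CAG organoids, mesenchyme markers summed to 15.1 to 18.9 CPM in WT and 23.3 to 28.2 CPM in KO, with Vim called higher and Lum and Acta2 at 0 in all 4 libraries. Endothelial markers summed to 10.4 to 17.5 CPM in WT and 5.14 to 5.39 CPM in KO, with Vwf and Lyve1 called lower and Cdh5 and Kdr at 0. Immune markers summed to 3.89 to 4.70 CPM in WT and 7.21 to 9.18 CPM in KO, with Csf1r called higher. Csf1r had 4 and 4 counts in WT and 34 and 26 in KO replicates 1 and 2. Glial and neuronal markers summed to 1.08 to 1.17 CPM in WT and 3.37 to 5.14 CPM in KO. The 1 gene tested of these 5, Tubb3, was called higher. Enterocyte markers were at 3670 to 4013 CPM in WT and 8306 to 10382 CPM in KO. Of these 7, 6 were called higher, where 18.1% of all genes tested were. Stem cell markers were at 2589 to 3100 and 2118 to 2492 CPM, with 2 of 4 called lower, where 13.4% of all genes were. The part of these shifts in the H19 and Igf1r results was not tested. In the KO IEC organoids no marker was called.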

How the data were processed

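RNA-seq was analysed for 16 libraries in 6 groups. The deposited values are raw counts of reads per gene, not normalized, in 1 table per experiment, and no columns of the authors' own comparisons are in them. The submitters' processing notes name HISAT2 2.0.5 and featureCounts 1.5.0-p3. The genome build is not given in the sources used here, but 95.2% (crypts, KO CAG) and 98.3% (KO IEC organoids) of the genes found in GENCODE M21 (GRCm38) have its start and end.

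Each experiment was fitted by itself with edgeR 4.0.16 in R 4.3.3 (filterByExpr, TMM factors, quasi-likelihood F test, Benjamini-Hochberg over all tested genes, called at an adjusted p under 0.05), where the study had used DESeq2. The SE printed was derived from the fold change and its F statistic. CPM are TMM-scaled, except floors and mitochondrial ribosomal RNA (total counts). RPKM were computed from CPM and the gene lengths in the tables. Counting intervals are exact (Clopper-Pearson), at 95%, and cover counting error only.

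Members and lists were chosen with earlier results of these data known. The genes named are the members, at most 4 called genes per list and comparison, and the 5 genes most like Igf2 over the crypt libraries on log2 CPM plus 0.5. List counts leave out the members. Alternatives were DESeq2 1.42.0, other scalings and filters, a joint fit, a replicate block, summed overlapping rows, the class of mitochondrial ribosomal RNA, and single libraries left out. The scripts were tested on simulated data. With dispersions drawn gene by gene, false calls exceeded the nominal share in the KO CAG design. Replicates differed by more than sampling noise in every pair (chi-square per gene 3.97 to 107), and no library was left out. One marker gene is not reported here and was left out of its list.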

Additional observations from a re-analysis of the deposited data

Results flagged for a closer look

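Of 24 groups of 4 crypt libraries checked, 2 held a library farther from the others than Dixon's 95% limit, which chance passes in about 1 of 20 groups. They are H19 in WT replicate 1 (1.52 CPM, the next 0.241 CPM) and Igf1r in WT replicate 4 (21.9 CPM, the next 36.9 CPM).

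The effect of the deletion differed between the organoid models, by the interaction test, for Ascl2 (3.88 on the log2 scale, KO CAG minus KO IEC, adjusted p = 0.00105, edgeR) and Tet2 (-1.21, adjusted p = 0.0375, edgeR).

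Between the crypts and the KO CAG organoids, every KO library lay on opposite sides of the WT libraries for some genes. All KO libraries lay above all WT libraries for 8.70% of the genes tested in the crypts and 35.5% in the KO CAG organoids. They lay below for 8.79% and 34.2%. The differences between these experiments were not tested. On the log2 scale they were 0.98 for Ascl2 (0.32 in the KO CAG organoids and -0.67 in the crypts), 0.82 for Insr (0.56 in the crypts and -0.26 in the KO CAG organoids), 1.35 for Irs2 (0.65 and -0.71) and 1.14 for Tet2 (0.51 and -0.63).

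The same held between both organoid models in their separate fits. In the KO IEC organoids, the KO libraries lay above the WT libraries for 19.4% of the genes tested and below for 19.4%. Ascl2 differed by 3.90 (0.32 in KO CAG and -3.59 in KO IEC) and Tet2 by 1.20 (0.57 in KO IEC and -0.63 in KO CAG), for which the interaction test is given above. Nagpa differed by 0.83 (0.63 in KO CAG and -0.20 in KO IEC), and the interaction test did not call it (0.82, adjusted p = 0.279, edgeR).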

How the results depend on the processing

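All values are log2 fold changes or counts of calls. In the crypts, Igf2 ranged from 2.11 to 2.35 over 9 alternatives and from 2.07 to 2.54 with single libraries left out, and Igf2os from 3.33 to 4.90 with single libraries left out and was 3.18 with the mitochondrial ribosomal RNA class in the model. Igf2r kept its sign there (0.23 to 0.47), as did Igf1r (-0.48 to -0.03). Igf2r changed sign with a library left out in the KO IEC organoids (-0.12 to 0.38) and the KO CAG organoids (-0.036 to 0.12). In the joint fit of 16 libraries, H19 (5.14, adjusted p = 0.0838) and Igf1r (-1.11, adjusted p = 0.119) in the KO CAG organoids were no longer called by edgeR. With single libraries left out, H19 gave 4.85 to 5.34 and Igf1r -1.35 to -0.83 there. The difference between the organoid models ran from -0.40 to 5.13 for H19, -0.38 to 0.15 for Igf2r and -0.75 to -0.22 for Igf1r with single libraries left out. The cause was not tested.

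Genes called over the whole table moved by more than 1.5 times under several alternatives. From 934 in the crypts they went to 2362 with DESeq2, 1659 in the joint fit, 1479 without a filter, 2 with the mitochondrial class, 4 with a replicate block and 2 to 2468 with single libraries left out. From 1 in the KO IEC organoids they went to 26, 18 and 223 in the first 3 of these, and 0 to 2322 with single libraries left out. From 4278 in the KO CAG organoids they went to 2530 with DESeq2, 477 in the joint fit, and 2789 to 5177 with single libraries left out.

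Genes called in the pathway and locus lists, cell type markers left out, numbered 5 in the crypts, 0 in the KO IEC and 34 in the KO CAG organoids. DESeq2 gave 10, 2 and 21, and single libraries left out gave 0 to 11, 0 to 16 and 18 to 39 (chosen after seeing the data). The replicate numbers pair no animals in the labels, and deviations of same-numbered crypt libraries correlated at -0.41 to 0.42, with 4 of 8 libraries closest to their own number (0.35 in the KO IEC and 0.07 in the KO CAG organoids). With a replicate block, Igf2 in the crypts was 2.25, 0 of these genes were called there and 36 in the KO CAG organoids, and no call of a member changed. Some listed genes named above as called in the KO CAG organoids were not called under every alternative. Besides Cdkn1c, Meg3 and Mcts2, they are Syt8, Slc22a18, Pappa2, Igf2bp3, Irs2, Pik3r1, Nagpa, Ctsb, Peg3, Tet2, Smc1a and Hmga2, cell type markers left out.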
